A study of Rattus norvegicus with 18 samples.

Results

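Cytosine methylation in the hippocampus was compared between 4 adult male Sprague-Dawley rats with kindled seizures and 4 kindling sham rats, which together are 8 of the 18 rats of the series. The rats were taken by the titles of the samples. The seizure rats were stimulated through hippocampal electrodes until fully kindled, their label gives 3 class V seizures, and the tissue was taken 24 hours after the last seizure. The sham rats carry the kindling model and the group name sham, and the sources used here do not say what they underwent. The remaining 10 rats belong to a systemic kainic acid model and are used only where they are named. All rats share the strain, and DNA came from left hippocampi, measured by reduced representation bisulfite sequencing of MspI fragments. The values cover the 20 autosomes.

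Kindling is a model of acquired epilepsy in which repeated brief stimulation, at first without convulsions, comes to evoke generalised seizures. Class V is the most severe stage on the scale usually used to score them. In mammalian DNA, methyl groups sit mainly on cytosines followed by guanine (CpG). Stretches dense in CpGs are mostly unmethylated and often hold gene starts, while sparse CpGs are mostly methylated. Neuronal activity is known to alter methylation at some sites in the adult brain through enzymes that add or oxidise methyl groups. Whole hippocampus mixes neurons and glia, so a shift in the share of cell types and a shift within cells cannot be told apart here. The labelled tissue was not checked against markers, because no gene annotation of the build of the files was used.

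The table gave a methylation level, the share of reads that kept the cytosine, for 2279082 autosomal cytosines in every rat, with each strand of a CpG on its own row. It holds no read counts, so the depth behind a level is unknown. Levels of exactly 0% made up 9.66, 16.9, 18.02 and 25.3% of cytosines in sham rats 1 to 4 and 8.83, 13.8, 10.03 and 20.6% in seizure rats 1 to 4. Sham rats 3 and 4 and seizure rat 4 had the 3 highest shares. The SD of the difference between both strands of a CpG was 5.29, 5.54, 6.44 and 6.44 points in the sham rats and 4.98, 5.05, 5.78 and 5.81 points in the seizure rats. Neither measure differed between the groups by a two-sided exact permutation test (p = 0.343 for the zeros and p = 0.229 for the strands, both adjusted p = 0.4). The design of 4 against 4 rats has 70 arrangements and a smallest p of 0.0286. The labels give each sample as its own animal, so p-values measure the spread between animals.

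The 8 rats did not order by group. In the 57056 tested 1000 bp regions with a mean level of 10 to 90%, the median absolute difference between a pair of rats was taken as their distance. Sham rats 1 and 2 and seizure rats 1 to 3 lay 2.44 to 3.21 points from each other. Sham rat 3, sham rat 4 and seizure rat 4 stood apart from these 5. Seizure rat 4 lay 4.24 to 4.75 points from the other seizure rats and was nearest to sham rat 3, at 3.56 points. Pairs of sham rats averaged 3.63 points, pairs of seizure rats 3.56 points and mixed pairs 3.55 points. Thus a sham and a seizure rat differed about as much as a pair from the same group. The 3 rats that stood apart were also those with the most levels of exactly 0%, and the part of this in the results was not tested. The counts of calls, runs, blocks and regions at an unadjusted p under 0.05 and the differences in level and spread are also given without them. These 3 rats were chosen on these same values, and without them sham rats 1 and 2 face seizure rats 1 to 3. Leaving out distant rats narrows the spread within groups, so a rise in calls without them is no test of a difference.

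**Figure D1:**
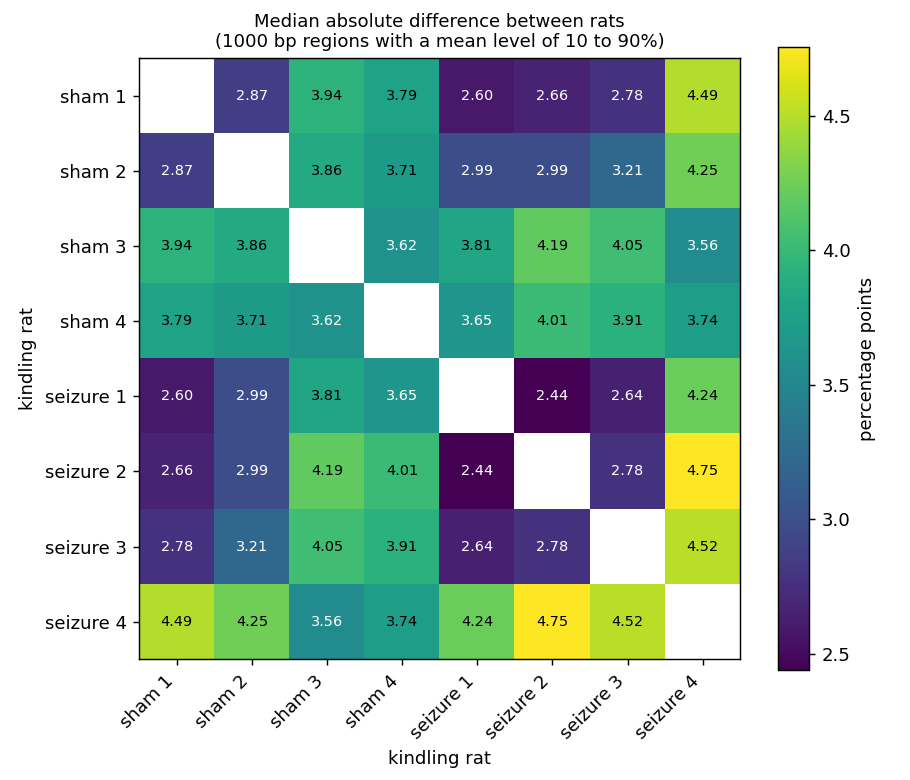
Median absolute difference in methylation level, in percentage points, between each pair of the 8 rats over 57056 regions of 1000 bp. Sham rats 1 and 2 and seizure rats 1 to 3 lie within 3.21 points of each other, while seizure rat 4 lies 4.24 points or more from the other seizure rats.

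The mean level over all autosomal cytosines was 42.7, 41.9, 42.6 and 42.1% in the sham rats and 42.9, 42.2, 43.1 and 42.2% in the seizure rats. The values overlapped, with 42.3% ± 0.386 in sham and 42.6% ± 0.468 in seizure rats (SD, n = 4 each). The difference of 0.269 points was within the spread between rats (two-sided exact permutation p = 0.4). It ranged from 0.0988 to 0.412 points when each rat was left out in turn, and was 0.413 points without the 3 rats that stood apart.

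Regions were then grouped by how many measured cytosines they held, as a measure of CpG density, and by their mean level over the 8 rats. Of the 147493 regions of 1000 bp with at least 3 cytosines, 32.7% held 3 to 9 cytosines at a level of 10 to 90% and 28.4% held 3 to 9 at a level above 90%. The densest regions, with 30 or more cytosines, were rarely methylated in full: 7569 were under 10%, 8249 between 10 and 90% and 537 above 90%. Every class of the 9 was on average higher in seizure rats, by 0.0771 to 0.372 points, and none passed an exact permutation test (Benjamini-Hochberg adjusted p over the 9 classes = 0.571 for each). The direction in the 3 classes under 10% rested on seizure rat 3, without which the differences were -0.0553, -0.0101 and -0.0143 points from the sparsest to the densest. Without the 3 rats that stood apart all 9 classes were higher in seizure rats, by 0.0332 to 0.642 points, and none passed (adjusted p 0.771 to 0.8).

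The largest difference of a class was in the dense regions of intermediate level. There the mean level was 21.99, 20.9, 21.7 and 20.8% in sham rats and 22.1, 21.3, 22.6 and 20.96% in seizure rats. In sparse regions of intermediate level the sham rats had 68.0, 67.2, 68.2 and 68.1% and the seizure rats 68.5, 67.8, 68.5 and 68.0%. Dense regions under 10% had 6.86, 5.90, 6.49 and 5.73% in sham rats and 6.79, 6.08, 7.27 and 5.82% in seizure rats. In each of these classes the groups overlapped, and rats moved by about as much within a group as between groups. Sham rat 2 was the lowest in the sparse class and seizure rat 3 the highest in both dense ones.

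**Figure D2:**
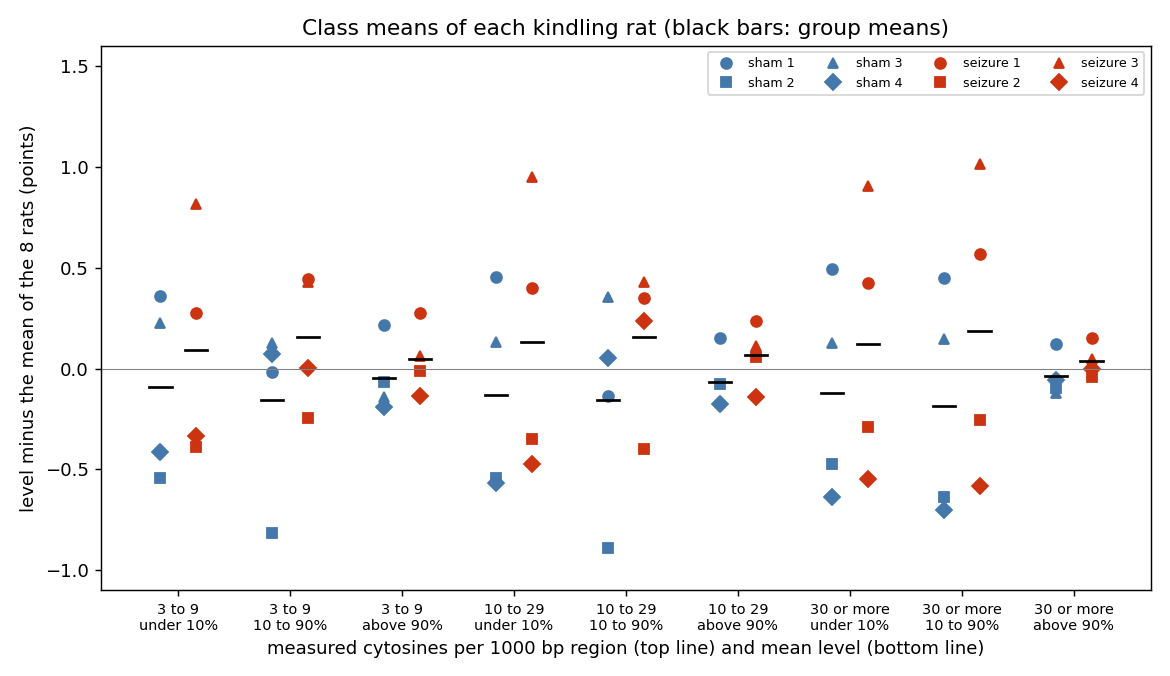
Mean methylation level of each rat, in percentage points from the mean of the 8 rats, in 9 classes of 1000 bp regions by measured cytosines and level. Blue points are the 4 sham rats and red points the 4 seizure rats, and they overlap in every class.

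Single regions were tested where the levels of the 8 rats spanned at least 5 points. With no such filter 147463 regions gave 0 calls and 5891 at an unadjusted p under 0.05. The filter left 70024 regions, and it kept them unevenly: 83.8% of sparse regions of intermediate level passed, against 13.6% of dense regions of intermediate level and 0.436% of dense regions under 10%. The tests therefore speak mainly for sparse CpGs outside the dense unmethylated stretches. No region passed limma at a Benjamini-Hochberg adjusted p under 0.05 (0 of 70024, 0%). The smallest adjusted p was 0.0556. At an unadjusted p under 0.05 there were 2750 regions, 3.93% of those tested. This lies under the share of 0.05 that the threshold itself would give if no region differed. The median 95% interval reached 5.28 points to either side of a region's difference. Central 95% of the differences lay between -5.83 and 6.52 points, with a median size of 1.61 points.

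Of the 2750 regions, 1647 were higher in seizure rats (2.35% of tested) and 1103 were lower (1.58%), so 59.9% were higher. The median difference over all tested regions was 0.365 points, and the split between higher and lower has this shift in it. Groups did not overlap in 1666 regions (2.38% of tested), 1050 higher and 616 lower. For any set of 8 distinct values, a share of 0.0286 of the arrangements of 4 against 4 rats has no overlap. Differences of at least 10 points were reached by 813 regions, 444 higher and 369 lower, and in 164 of these the groups did not overlap. At 20 points or more there were 63 regions, 18 of them without overlap. In most regions with a large mean difference the groups thus overlapped. Without seizure rat 4 the regions at an unadjusted p under 0.05 rose to 4525 of 64651 tested, a share above 0.05. When any other rat was left out they numbered from 2114 of 68185 to 3251 of 67722, and the share stayed under 0.05. Called regions rose from 0 to 6, 7 and 3 without sham rats 2, 3 and 4, and to 3, 4 and 7 without seizure rats 1, 3 and 4. Without the 3 rats that stood apart, 202 of 46182 tested regions were called and 3112 had an unadjusted p under 0.05, 1996 higher and 1116 lower. Those rats were chosen by their distance in these same regions, so this rise is no test of a difference.

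By density, the share of tested regions at an unadjusted p under 0.05 was highest where CpGs were sparse. With 3 to 9 cytosines, 2.69% were higher and 1.85% lower in seizure rats, with 10 to 29 cytosines 1.49% and 0.882%, and with 30 or more 0.669% and 0.0836%. The last shares are 8 regions higher and 1 lower of 1196 tested. By level, 2.35% were higher and 1.602% lower at 10 to 90%, 2.43% and 1.55% above 90%, and 1.42% and 0.534% under 10%. Among tested regions, which had all passed the filter on span, the median interval reached 5.33 points to either side in the sparse class and 5.21 points in the densest. Before that filter the spread did follow density. At a level of 10 to 90%, the median SD was 3.06 points in sham and 2.93 in seizure rats with 3 to 9 cytosines. With 30 or more it was 0.801 and 0.928 points. The difference between the shares of the classes was not tested. Differences of 10 points or more were found in 1.49% of the tested sparse regions and in 0.0836% of the densest, which is 1 region. Without the 3 rats that stood apart the shares higher and lower were 4.82% and 2.80% with 3 to 9 cytosines, 2.71% and 1.18% with 10 to 29, and 2.32% and 0.357% with 30 or more.

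**Figure D3:**
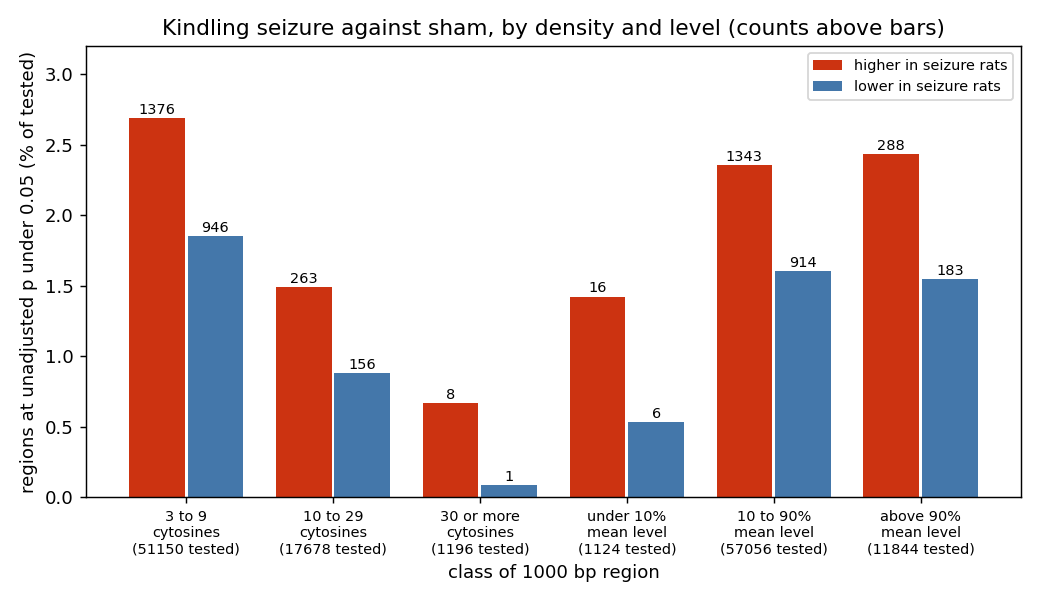
Share of tested 1000 bp regions, in percent, with an unadjusted limma p under 0.05 that were higher or lower in seizure rats, by measured cytosines per region and by mean level. The share falls from 2.69% higher and 1.85% lower at 3 to 9 cytosines to 0.669% and 0.0836% at 30 or more.

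The 5 regions of smallest p in each direction are given as values and not as calls. All 10 had groups that did not overlap, differences of 16.1 to 28.3 points in size, and limma adjusted p between 0.0556 and 0.456. Their measured cytosines spanned at most 187 bp, and 9 of the 10 held under 10 cytosines. The region nearest to the threshold lies on chromosome 13 (51339001 to 51340000 in rn6, 4 cytosines). Its level was 96.4, 89.9, 87.8 and 92.0% in the sham rats and 68.2, 67.6, 71.2 and 72.5% in the seizure rats. Every seizure rat was at least 15 points below every sham rat. The fitted difference was -21.7 points (SE 2.28, limma adjusted p = 0.0556), and it passed the threshold when sham rat 2, sham rat 3, seizure rat 3 or seizure rat 4 was left out. Both strands of 1 CpG carried this difference, at -43.9 and -43.2 points, and both are among the single cytosines called below. The remaining cytosines of the region differed by -3.25 to 3.58 points.

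On chromosome 16 (61744001 to 61745000, 5 cytosines) the sham rats had 93.1, 97.7, 99.7 and 96.6% and the seizure rats 80.7, 79.8, 83.7 and 78.5%, a difference of -16.1 points (SE 1.87, limma adjusted p = 0.0747). This difference came from 1 cytosine, which was 78.9 points lower in seizure rats, while the others differed by -2.33 to 0.883 points. A region on chromosome 12 (23659001 to 23660000, 11 cytosines) had 94.2, 97.7, 96.9 and 96.2% in sham and 69.0, 80.0, 80.3 and 68.7% in seizure rats, a difference of -21.8 points (SE 2.82, adjusted p = 0.153). Here the loss was shared by close neighbours on the same strand: the 8 cytosines within the first 20 bp were 25.3 to 32.4 points lower in seizure rats. The 3 cytosines from 26 to 133 bp further on differed by -3.17 to 0.269 points. The opposite strand was not measured, and the same reads can cover all 8 cytosines, so these are not 8 independent values. Averaged over those 8 cytosines, sham rats had 94.4, 98.4, 98.0 and 96.5% and seizure rats 61.4, 73.6, 75.6 and 59.0%. Among these 10 regions it was the only one in which more than 3 cytosines differed by 10 points or more.

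**Figure D4:**
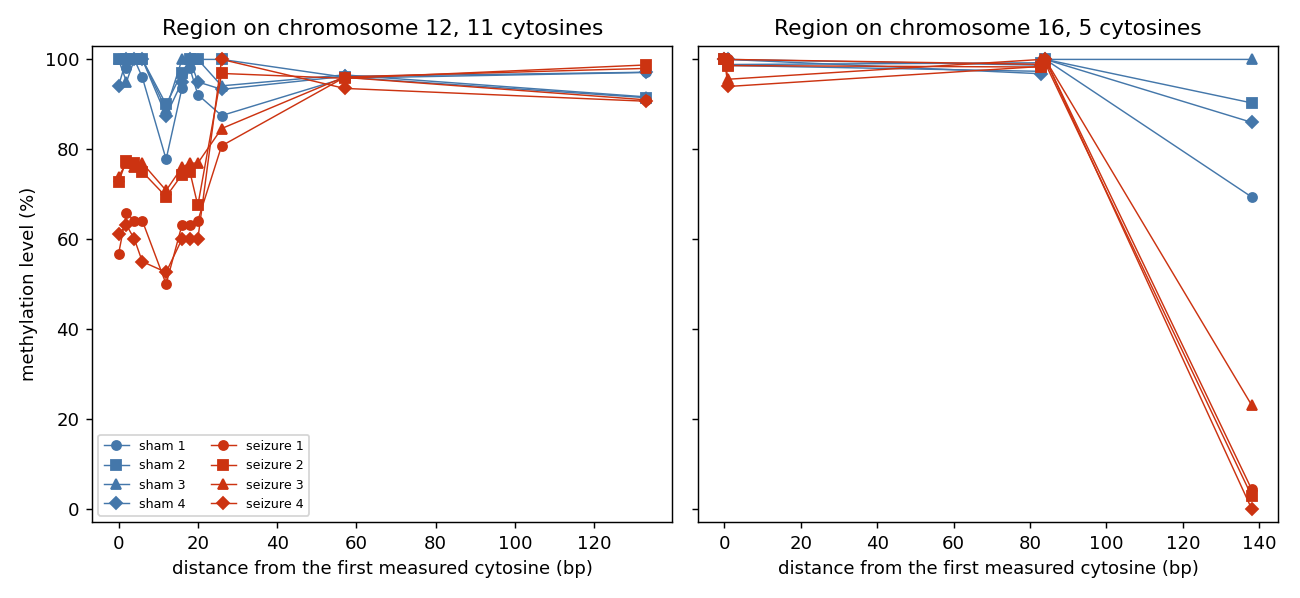
Methylation level, in percent, of each measured cytosine in a region on chromosome 12 and in one on chromosome 16, by distance in bp from the first measured cytosine; blue lines are the 4 sham rats and red lines the 4 seizure rats. On chromosome 12 the 8 cytosines within the first 20 bp are lower in every seizure rat, and on chromosome 16 only the last cytosine differs.

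The region on chromosome 15 (17891001 to 17892000, 3 cytosines) had 68.8, 70.9, 67.4 and 80.3% in sham rats and 45.7, 45.4, 51.1 and 53.6% in seizure rats. All 3 of its cytosines, which lie on the same strand, were lower, by 22.2 to 23.6 points. The fifth of the lower regions, on chromosome 20 (11277001 to 11278000, 3 cytosines), had 88.5, 99.6, 93.4 and 98.7% against 67.1, 66.7, 65.6 and 81.8%. A single cytosine, 75.4 points lower in seizure rats, carried it, and seizure rat 4 was closest to the sham rats.

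Of the 5 regions higher in seizure rats, the largest difference was on chromosome 19 (40869001 to 40870000, 4 cytosines). It had 54.5, 46.2, 46.3 and 64.3% in the sham rats and 80.2, 79.7, 80.3 and 84.1% in the seizure rats, a difference of 28.3 points (SE 3.77, limma adjusted p = 0.153). Another region of chromosome 19 (41104001 to 41105000, 6 cytosines) had 72.2, 80.8, 82.5 and 82.2% against 97.3, 94.4, 96.7 and 95.1%. In both of these regions the sham rats were more scattered than the seizure rats. On chromosome 20 (13154001 to 13155000, 6 cytosines) the sham rats had 65.3, 59.2, 74.5 and 60.7% and the seizure rats 86.9, 85.9, 86.5 and 86.0%. Within each of these 3 regions both strands of 1 CpG carried the difference, of 49.0 to 65.4 points, and the remaining cytosines differed by -7.28 to 3.12 points. The last 2 regions, on chromosome 6 (96420001 to 96421000) and chromosome 8 (119495001 to 119496000), held 3 cytosines each, on the same strand within a region. All were higher in seizure rats, by 12.9 to 28.0 points. On chromosome 6 the sham rats had 73.6, 71.3, 70.6 and 66.7% and the seizure rats 91.4, 94.7, 92.3 and 79.5%.

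Runs of neighbouring regions that changed together were few, and few neighbours were tested. A run was defined as adjacent tested regions, each at an unadjusted p under 0.05 and with the same sign. There were 12 runs, 8 higher and 4 lower in seizure rats, and each was 2 regions long. Their 24 regions are 0.873% of the regions at that threshold, which leaves 2726 single regions. Most of these could not form a run: only 290 regions at that threshold had an adjacent tested region to the right. Of those neighbours 4.14% reached it with the same sign, where over all tested regions 2.35% were higher and 1.58% lower. Of 34370 adjacent pairs of regions with at least 3 cytosines, 8102 had both members tested. Both members had an unadjusted p under 0.05 with the same sign in 12 of these pairs and with opposite signs in 7. Regardless of p, 56.2% of adjacent pairs had the same sign, and Pearson's r of their differences was 0.139 across regions, which share libraries and are not independent. At a distance of 2000 bp r was 0.0590 and at 20000 bp it was 0.0140. Allowing starts up to 5000 bp apart gave 25 runs, the longest of 3 regions. The count of runs depended on single rats: it was 61 without seizure rat 4 and 23 without sham rat 1, and 8 to 14 without any other. There were 23 runs, the longest of 3 regions, without the 3 rats that stood apart.

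The run with the largest difference lies on chromosome 3 (170158001 to 170160000, 19 cytosines). Its mean level was 71.3, 69.7, 67.1 and 62.1% in sham rats and 74.6, 86.2, 77.2 and 86.1% in seizure rats, 13.5 points higher in the latter. Seizure rats 2 and 4 were the highest and the groups did not overlap. The nearby tested regions, which start 3 and 6 kb after the start of the run, had the same sign, with differences of 1.33 and 0.401 points. A run on chromosome 13 (101236001 to 101238000, 10 cytosines) was 11.2 points higher in seizure rats, with 68.8, 64.4, 57.5 and 64.8% in sham and 76.3, 75.8, 80.1 and 68.2% in seizure rats. Here the groups overlapped, since sham rat 1 was above seizure rat 4. Beyond it a region that starts 4 kb before the run was 7.77 points higher (unadjusted p = 0.0487) and one that starts 3 kb after the start of the run was 5.205 points higher (unadjusted p = 0.0837).

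On chromosome 4 (180320001 to 180322000, 10 cytosines) the sham rats had 57.9, 54.5, 54.4 and 50.5% and the seizure rats 59.7, 62.0, 60.5 and 70.8%. On chromosome 10 (84870001 to 84872000, 13 cytosines) the difference was -8.19 points, with 65.3, 62.7, 75.5 and 68.3% in sham and 59.4, 57.5, 60.4 and 61.8% in seizure rats. The run at the lowest level was on chromosome 6 (92647001 to 92649000, 10 cytosines), with 20.1, 18.8, 13.9 and 14.4% in sham and 31.7, 21.1, 21.2 and 25.6% in seizure rats. In these 3 runs the groups did not overlap, although the gap on chromosomes 4, 10 and 6 was small beside the spread of at least one group. The limma adjusted p of every region in the 5 runs was 0.9996, and since runs were chosen for their difference they were given no test of their own.

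Blocks were fixed by coverage alone, as every stretch of 2 or more adjacent regions with at least 3 cytosines each, so that they could be tested. Of 24940 blocks, 8787 spanned at least 5 points over the rats. None was called (limma, 0 of 8787, 0%, smallest adjusted p = 0.661). At an unadjusted p under 0.05 there were 304, or 3.46%, with 188 higher and 116 lower. Without sham rat 1 there were 3 called blocks, and without sham rat 4, seizure rat 1 or seizure rat 3 there were 2. Of 4666 blocks tested without the 3 rats that stood apart, 33 were called. The run on chromosome 3 was also the block of smallest p among those higher in seizure rats (difference 13.5 points, SE 2.80, adjusted p = 0.661). A block on chromosome 3 (60386001 to 60388000, 18 cytosines) had the largest loss among the 6 named blocks. It had 54.0, 61.3, 66.2 and 73.6% in sham rats and 40.2, 39.7, 57.1 and 43.4% in seizure rats, a difference of -18.7 points (SE 3.94, adjusted p = 0.661). Seizure rat 3 lay within the range of the sham rats.

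The remaining 4 named blocks differed by 10.1 to 11.4 points in size. On chromosome 13 (52905001 to 52907000, 16 cytosines) the sham rats had 82.9, 83.4, 84.3 and 73.0% and the seizure rats 71.8, 71.4, 69.9 and 67.6%, with sham rat 4 close to the seizure rats. On chromosome 4 (150853001 to 150855000, 13 cytosines) it was a seizure rat that stayed with the other group: sham rats had 75.3, 75.0, 72.9 and 73.7% and seizure rats 75.2, 90.1, 90.3 and 86.6%. The blocks on chromosome 3 (154696001 to 154698000) and chromosome 6 (93637001 to 93639000) were higher and lower in seizure rats, and the groups overlapped only in the latter.

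At the level of single cytosines, 649216 whose levels spanned at least 10 points were tested, 28.5% of those on autosomes. limma called 30 of them (0.00462%), 15 higher and 15 lower in seizure rats. At an unadjusted p under 0.05 there were 26279, or 4.05%, of which 15109 were higher. The 30 called differences were large, from 33.9 to 78.9 points in size with a median of 53.7. At 14 of the 30, all 4 rats of a group were under 10% or above 90%, the sham rats at 6 and the seizure rats at 8. In 8 of these the other group lay between 30 and 70% in every rat. At no called cytosine did both groups sit at opposite ends of the scale.

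The count of calls depended strongly on the settings and on single rats. Raising the span asked for to 20 points gave 405 calls of 259272 tested. Asking for none, a setting chosen after seeing the data, gave 1 of 2173963. A fit in which all 18 rats share the variance gave 0 of 649216. Leaving out sham rats 1 to 4 in turn gave 163, 257, 150 and 145 calls, and leaving out seizure rats 1 to 4 gave 95, 75, 137 and 140. Without the 3 rats that stood apart, which were chosen by their distance in these same data, there were 4415. Of the 30, 29 passed in each of the 8 fits that left out a rat, and the remaining one, on chromosome 12 at 22916606, passed in 6. On the log2 odds scale, which weighs differences near 0 and 100% more, 20 cytosines were called and 12 of them were among the 30. The share of cytosines whose groups did not overlap was 2.41% where the levels spanned 10 to 20 points, 2.43% at 20 to 30, 2.35% at 30 to 40, 2.62% at 40 to 60 and 3.198% at 60 or more. In that widest class 273 of 8536 cytosines had groups that did not overlap, of which 19 were called.

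The smallest adjusted p belonged to a cytosine on chromosome 11 at 65268986. Its level was 1.69, 0, 0 and 6.67% in the sham rats and 75.6, 64.6, 72.9 and 78.6% in the seizure rats, a difference of 70.8 points (SE 5.11, limma adjusted p = 0.000246). The next was on chromosome 7 at 144273913, with 95.8, 100, 92.3 and 94.4% in sham and 24.6, 27.4, 34.04 and 37.2% in seizure rats (difference -64.8 points, SE 5.18, limma adjusted p = 0.000536). Its partner on the other strand had 100, 97.8, 100 and 96.1% against 49.0, 40, 34.8 and 59.2%. On chromosome 1 at 148442033 the seizure rats were the group near full methylation, with 96.4, 98.9, 97.2 and 98.96% against 45.1, 36.4, 23.7 and 32.4% in sham rats (difference 63.5 points, SE 5.40, limma adjusted p = 0.000854). In these 3 cytosines the rats of a group lay close together and far from the other group.

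The largest difference was on chromosome 16 at 61744629, the cytosine that carried the region described above. Sham rats had 69.4, 90.3, 100 and 86.0% and seizure rats 4.35, 2.86, 23.1 and 0% there (difference -78.9 points, SE 7.15, limma adjusted p = 0.00134). Chromosome 20 at 11277848 followed, with 65.5, 100, 84.6 and 100% in sham rats and 2.94, 0, 0 and 45.5% in seizure rats. Chromosome 3 at 60981962 had 42.5, 67.4, 94.9 and 57.1% in sham rats and 3.19, 0, 0 and 2.17% in seizure rats. The sham rats of this last site spanned over 50 points, while the seizure rats were all near 0%.

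Among the sites higher in seizure rats, chromosome 12 at 22614565 had 33.8, 1.92, 0 and 2.27% in sham rats and 90.9, 95.2, 67.5 and 59.7% in seizure rats. Chromosome 3 at 169938326 had 15.8, 0, 1.05 and 0.943% against 50, 90.4, 54.8 and 89.9%. At the other end of the same locus, which spans 208485 bp, chromosome 3 at 170146810 had 22.2, 0, 5.41 and 5% against 62.2, 87.4, 55.2 and 82.4%. At both sites of chromosome 3 the rats kept one order: sham rat 1 was the highest sham rat, and seizure rats 2 and 4 lay above seizure rats 1 and 3. The run on this chromosome described above lies just beyond the second of them and had the same split of the seizure rats. On chromosome 20 at 13154839 sham rats 1 and 3 had 13.3 and 37.8% and the other sham rats 0%, against 71.8, 74.1, 87.7 and 78.9% in seizure rats.

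**Figure D5:**
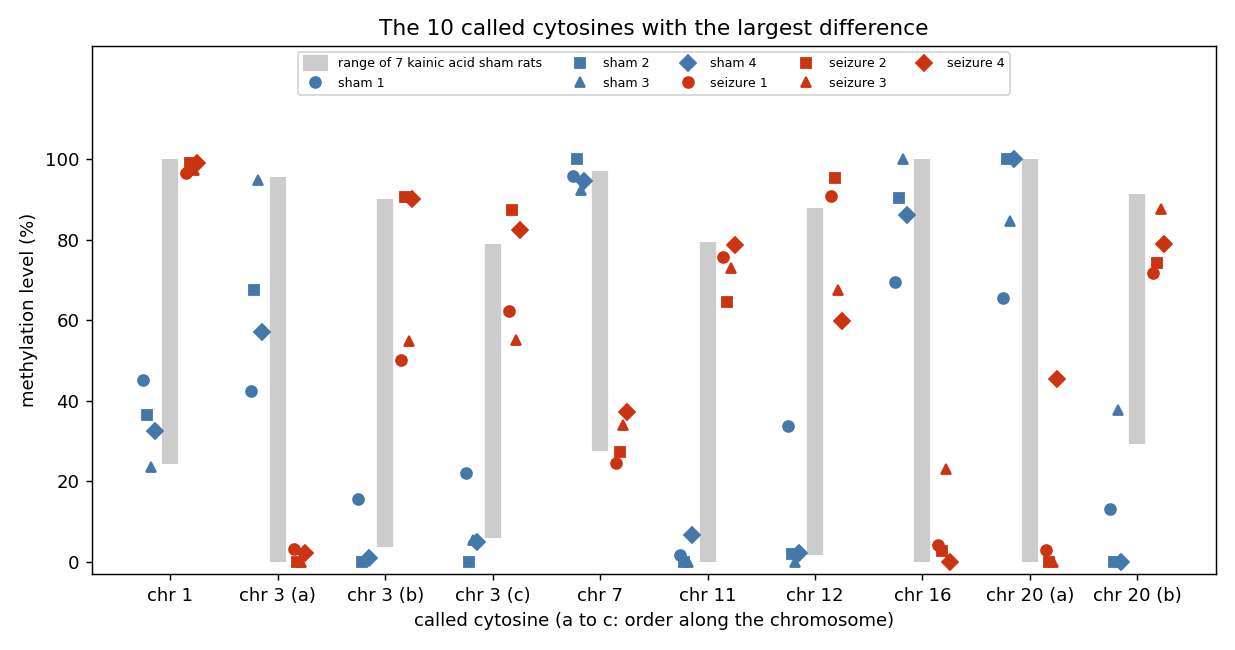
Methylation level, in percent, of each rat at the 10 called cytosines with the largest difference; blue marks are the 4 sham rats and red marks the 4 seizure rats. The groups do not overlap at any of them, and at several sites 1 rat lies well away from the rest of its group, such as seizure rat 4 at 45.5% on chromosome 20.

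The 30 cytosines are 24 distinct CpGs in 18 loci at least 1 Mb apart. The partner cytosine on the opposite strand was measured for 23 of the 30, and it differed in the same direction by at least 10 points in 21. At chromosome 17, position 6244328, the partner differed by -1.19 points where the called strand differed by 52.4. At position 59070229 of the same chromosome it differed by 7.31 points against 49.99. Apart from partners, neighbours hardly moved. Of the 599 measured cytosines within 500 bp of a called one and outside the called CpGs themselves, 0 differed in the same direction by at least 10 points and 4 in the opposite direction. Called CpGs that lay that close to each other were those on chromosome 20 at 50819321 and 50819337. The sites on chromosomes 17 and 20 in this paragraph were named after their values were seen. Bisulfite sequencing reads a C-to-T difference in the DNA sequence as an unmethylated cytosine. Genotypes of the rats were not used here, and the part of such differences in these calls was not tested.

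Loci with more than 1 called CpG numbered 4 and held 10 of the 24 CpGs. The largest was on chromosome 12, with 6 called cytosines at 4 CpGs between 22614565 and 23686293. Its cytosines are described after their values were seen. At 23686292 all 4 sham rats had 100% and the seizure rats 50, 40.7, 57.9 and 41.4%. At 23093257 the sham rats had 98.9, 98.1, 100 and 100% and the seizure rats 58.5, 54.9, 52.3 and 53.6%. At 22916606 the sham rats had 78.6, 78.4, 79.8 and 81.6% and the seizure rats 41.8, 42.5, 42.9 and 46.7%. The called cytosines on the opposite strand spread more widely. At 22916607 the seizure rats had 43.7, 54.1, 32.6 and 41.2% and at 23686293 they had 52.5, 34.7, 51.9 and 64.7%, against 82.0 to 90.3% and 90.9 to 100% in sham rats. The chromosome 12 region described above, also lower in seizure rats, lies within this locus. The CpG at 22614565 went the other way and was higher in seizure rats.

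The kainic acid rats, 7 sham and 3 seizure rats that share no sample with the kindling groups, were measured at the same cytosines. In a limma fit of those 10 rats none of the 30 reached an adjusted p under 0.05 (smallest 0.652). The sign was the same at 12 of 30, and an unadjusted p under 0.05 was reached with the same sign at 6 and with the opposite sign at 10. Over all 638296 tested kainic acid cytosines 4.50% reached it. The 30 cytosines are 24 CpGs in 18 loci, and both strands of a CpG and CpGs of 1 locus are counted separately here. These counts are therefore not of independent sites. The chromosome 12 locus differed from the rest, a comparison made after its values were seen and not tested: all 6 of its cytosines had the same sign and 5 reached that p. Of the 24 called cytosines elsewhere, 6 had the same sign, 1 reached that p with it and 10 reached it with the opposite sign. Their sham rats were widely spread at these sites, with a median range of 70.8 points, and lay on both sides of the midpoint between the kindling groups at 29 of 30. The mean of the kainic acid sham rats was closer to the kindling seizure mean at 22 sites and to the kindling sham mean at 8. At chromosome 12, position 23686292, for instance, the kainic acid sham rats ran from 50 to 98.1% with a median of 65.6%, and the kainic acid seizure rats from 0 to 48.9%. At chromosome 11, position 65268986, the kainic acid sham rats ran from 0 to 79.3% with a median of 70.8%. At 27 of the 30 sites the kainic acid sham rats reached the range of both kindling groups, and at 3 they did not. Of the 10 named regions, 2 had the same sign in the kainic acid rats, those on chromosomes 8 and 12. The difference of the chromosome 12 region was -28.9 points there, with 52.5% in kainic acid seizure rats and 81.4% in kainic acid sham rats. Those sham rats ran from 68.5 to 93.6% with a median of 76.8%. They lay below every kindling sham rat and spanned the range of the kindling seizure rats. The named regions were given no test in the kainic acid rats.

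The spread within the groups was compared over the 57056 tested regions of intermediate level. The median SD of a region was 3.30 points in sham and 3.24 points in seizure rats, and the 90th percentile was 7.30 and 7.31 points. The sham SD was the larger in 50.3% of regions. The median difference in SD, seizure minus sham, was -0.0189 points (two-sided exact permutation p = 0.943). Without seizure rat 4 the difference was -0.977 points (exact permutation p = 0.0857, 3 against 4 rats), and it was between -0.0467 and 0.319 points when any other rat was left out. It was 0.237 points without the 3 rats that stood apart (exact permutation p = 0.7), where too few rats remain for that test to reach 0.05. An SD over fewer rats runs lower, so these values compare groups of unequal size. Some regions were uneven in each direction: in 244 the sham SD was at least 10 points and the seizure SD under 3, and in 156 the reverse held. The rat farthest from the rest of its group was seizure rat 4 in 81 of those 156 and sham rat 4 in 81 of the 244. Seizure rat 4 was also over 15 points from the median of the other 7 rats in 3.74% of regions, against 0.941 to 2.76% in the others. By density, its median distance from the others was 3.86 points with 3 to 9 cytosines, 3.54 points with 10 to 29 and 3.72 points with 30 or more, the largest of the 8 rats in each.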

How the data were processed

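Reduced representation bisulfite sequencing of 8 kindling rats (4 sham, 4 seizure) was analysed. Per the labels, the deposited table holds beta values, the methylated fraction from 0 to 1 of each cytosine, in 18 rats, with no read counts. Build rn6 and the tools Bismark, Bowtie2, methylKit, FastQC and Trim Galore come from the submitters' processing notes, which give no versions or roles. No source used here states a coverage minimum. A level from few reads takes coarse steps, and how depth bears on the spread of a rat was not tested.

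Fractions were expressed in percent and averaged in 1000 bp regions with at least 3 cytosines. Regions and blocks spanning at least 5 points and cytosines spanning at least 10 points over the 8 rats were tested with limma 3.58.1 in R 4.3.3 (with data.table, version 1.17.8) on the fraction scale, letting the variance prior follow the mean level. Calls required an adjusted p (Benjamini-Hochberg, all tested units of a kind) under 0.05. This call rule was tested on simulated data. Values per rat were compared by two-sided exact permutation tests. Plots used matplotlib 3.10.9 in Python 3.11.15.

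The groups, classes and rules were chosen with earlier results of these data known. Named were the 5 regions and 3 blocks of smallest p in each direction where under 5 regions or no block passed, the 10 called cytosines of largest difference, and the 5 longest runs, ties by size. Lists of genes were not used, because no gene annotation of rn6 was used here. For the same reason no sequence is printed. Replicate numbers were not taken as pairs: the correlation of the deviations of same-numbered rats from their group means was 0.122, 0.0992, -0.115 and 0.157. Alternatives covered region length, filters, the log2 odds scale, array weights, covariates, a fit over all 18 rats and leaving out each rat.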

Additional observations from a re-analysis of the deposited data

Results flagged for a closer look

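In 9 of 90 groups of 4 rats examined (10%), 1 rat lay far from the other 3, with a gap to the nearest, relative to the range of the group, beyond Dixon's 95% critical value. Chance flags about 1 in 20 groups. Seizure rat 4 had the largest mean distance to its own group, 4.50 points, against 3.11 to 3.32 points for the other seizure rats. Sham rat 2 was low in sparse regions of intermediate level, at 67.2% against 68.0 to 68.2%. Seizure rat 4 lay apart in the regions chr19:40869001-40870000, at 84.1% against 79.7 to 80.3%, and chr20:11277001-11278000, at 81.8% against 65.6 to 67.1%. It also lay apart at the called cytosine of the latter, chr20:11277848, at 45.5% against 0 to 2.94%. Sham rat 1 lay apart in the region chr19:41104001-41105000, at 72.2% against 80.8 to 82.5%. The same rat had 33.8% at the cytosine chr12:22614565, against 0 to 2.27% in the other sham rats. At the cytosine chr3:169938326 it had 15.8%, against 0 to 1.05%. Sham rat 4 lay apart in the block chr13:52905001-52907000, at 73.0% against 82.9 to 84.3%.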

How the results depend on the processing

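Called regions numbered 0 under the settings of the report, 2 with lengths of 500 bp and 2 with 5000 bp, 1 with at least 10 cytosines, 9 with a span of at least 10 points, 8 with array weights and 0 to 7 with each rat left out. Regions at an unadjusted p under 0.05 numbered 2750 of 70024 tested under the settings of the report. They numbered 657 of 18874 with at least 10 cytosines and 5891 of 147463 with no span filter. With a span of at least 10 points they numbered 1249 of 31575, and with both strands averaged 1303 of 37547. Of 70024 tested, they numbered 4279 in the fit over all 4 groups and 4678 with array weights. With each rat left out they numbered from 2114 of 68185 to 4525 of 64651. The share was above 0.05 in the fit over all 4 groups, with array weights, without seizure rat 4 and without the 3 rats that stood apart. Runs numbered 25 with starts up to 5000 bp apart, 1 at an unadjusted p under 0.01 and 8 to 61 with each rat left out. Called cytosines numbered 405 of 259272 tested with a span of at least 20 points and 0 of 649216 over all 4 groups. They numbered 75 to 257 with each rat left out and 20 on the log2 odds scale (12 of the 30). With settings chosen after seeing the data they numbered 1 of 2173963 with no span asked for and 43 with array weights (28 of the 30). Further settings chosen that way gave 7 with the strand difference as a covariate and 16 with 1 variance prior. Without the 3 rats that stood apart, also chosen after seeing the data, 202 regions, 33 blocks and 4415 cytosines were called, there were 23 runs, and the difference in spread was 0.237 points. Called blocks numbered 0 to 3 with each rat left out.

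The replicate number as a block gave 0 called regions, 3262 regions at an unadjusted p under 0.05, 0 called blocks and 12 called cytosines, 11 of them among the 30. The rats share only a number, and not every rat correlated best with its own. The mean level difference was 0.0988 to 0.412 points with each rat left out. The difference in spread was -0.977 to 0.319 points, with the opposite sign in 5 of 8 (0.0643, 0.0756, 0.319, 0.257 and 0.141 points without sham rats 1 to 4 and seizure rat 1). With each rat left out, the class differences ran, from 3 to 9 to 30 or more cytosines, from -0.0553 to 0.346, -0.0101 to 0.464 and -0.0143 to 0.469 points under 10%. They ran from 0.0959 to 0.450, 0.0643 to 0.494 and 0.0962 to 0.629 points at 10 to 90%, and from 0.0177 to 0.181, 0.0746 to 0.204 and 0.0399 to 0.131 points above 90%. On the log2 odds scale 6 of the 10 named cytosines no longer passed. Why the counts moved was not tested. Depth is unknown, so no limit from it can be given.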

Other observations

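The regions at an unadjusted p under 0.05 were spread over all 20 autosomes, from 3.16% of tested regions on chromosome 10 to 5.14% on chromosome 17. Among the 878 windows of 1 Mb with at least 30 tested regions, the median share was 3.13%. The window with the highest share, chromosome 2 from 43000001 to 44000000, held 5 higher and 1 lower of 32 tested regions. On chromosome 20 from 13000001 to 14000000 there were 7 higher and 1 lower of 47, and on chromosome 3 from 60000001 to 61000000 there were 3 higher and 5 lower of 45. These windows were chosen for their share after it was seen, and they were given no test.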
